A study of Mus musculus with 12 samples.

Results

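Among the gene probes of the array, 16181 of 55681 (29.1%) carried no gene symbol but a genome position: a chromosome number or X, a start and an end, and the suffix _F or _R. They were taken by that form of the name alone, with no use of a signal. They carried 4607 such names at 3540 positions, of which 1067 had probes for both suffixes and 2473 for 1 suffix. Of these probes, 8171 were _F and 8010 were _R. The scanner files placed 16063 of them on build mm9, each inside the interval of its name, and each _F probe on the plus strand and each _R probe on the minus strand; 118 had no placement. Every probe was a 60-mer. A name had a median of 3 probes and at most 10, and the intervals had a median length of 7315.5 bases (quartiles 787.25 and 21815.5).

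Long intergenic noncoding RNAs are transcripts that lie between protein-coding genes, are mostly spliced and polyadenylated like mRNA, and are not translated into protein. Many are expressed at low levels and in few cell types, and those studied in detail act on chromatin, on neighbouring genes or as scaffolds for protein complexes. A name by position says only that a transcript was proposed there when the array was designed, and gives neither its exons nor its function. IL-10 is the cytokine by which a small share of activated B cells, called regulatory B cells, restrains inflammation.

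The B cells came from the spleen of female Balb/c mice, either control mice or mice with allergy to house dust mite (HDM), and no genetic change is named. All were purified, cultured with a CD40 agonist for 2 days and given LPS for the last 5 hours, so every group is of activated cells. An assay that holds secreted IL-10 on the cell was then used to sort cells that secreted it (IL-10+) from cells that did not (IL-10-). Each of IL-10+ control, IL-10+ HDM, IL-10- control and IL-10- HDM had 3 arrays. Whether these came from different animals or different cultures is not given in the labels, and the p-values then measure only the spread between these samples, which may be technical. In such bulk samples, fewer cells that express an RNA and less RNA per cell cannot be told apart. Because the RNA was turned into cDNA, amplified by PCR and labelled by a protocol that the labels call undisclosed, it is also not known from the sources used here whether the labelled material kept the strand of the RNA.

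Levels are log2 of the processed signal minus the 75th percentile of the array. A probe counts as detected on an array where the scanner's flag has it well above background. A difference is called where limma's adjusted p over all 37648 probes tested is under 0.05. The sort was visible in the RNA: Il10 was higher in IL-10+ cells by 7.59 (log2; SE 0.84; limma adjusted p = 0.0124, 6 against 6 arrays), and Cd9, named in the study's title, by 4.52 (SE 0.57; adjusted p = 0.0155). In control mice alone neither was called, Il10 at 6.56 (adjusted p = 0.217) and Cd9 at 4.80 (adjusted p = 0.201). In HDM mice alone Il10 was called (8.61; adjusted p = 0.0261) and Cd9 was not (4.24; adjusted p = 0.0791). All 10 B cell identity genes listed had a tested probe. None of the probes for B cell identity or for the T cell, NK cell, monocyte, dendritic cell, neutrophil, erythroid, platelet and stroma lists was called in any of the 6 comparisons. At an unadjusted p under 0.05 there were at most 3 probes of a list. These were 3 of 10 monocyte and macrophage probes for HDM against control in IL-10- cells (3539 of all 37648 probes). In that comparison the 2 Emr1 probes gave -3.70 and -3.49, and in the sort in HDM mice 4.06 (limma adjusted p = 0.0537) and 2.88. The medians of the list were -0.27 and 0.33. The log2 of the summed signal of the T cell list ran from 1.77 to 2.70 over the 12 arrays, with all 4 groups overlapping. That of the B cell list was 6.24 to 6.33 in IL-10- control, below the other 3 groups (6.36 to 6.67). That of the stroma list was 2.96 to 3.38 in IL-10+ control, above the other 3 groups (1.35 to 2.81). The dendritic cell list did not overlap between IL-10+ HDM (6.13 to 6.18) and IL-10- HDM (6.25 to 6.55), nor the platelet list between IL-10- control (-0.44 to 0.52) and IL-10- HDM (-2.68 to -0.50). The part of these lists in the results was not tested. IL-10- HDM array 3 stood apart, with a mean correlation of 0.657 with the other 11 arrays over the position-named probes tested, against 0.778 to 0.827 for the rest. The arrays lay on 2 slides: all IL-10+ arrays and IL-10- control arrays 1 and 2 on slide 1, and IL-10- control array 3 with the 3 IL-10- HDM arrays on slide 2. In HDM mice the sort and the slide therefore cannot be told apart.

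Some of the probes are shown here because the results turn on how the same stretch of genome read on each strand. The following pairs lie on opposite strands at 1 place, and capitals mark the bases that the partner holds as their reverse complement. The forward probe at chr5:121781764-121781823 shared 47 bases with the reverse probe at chr5:121781751-121781810. The pair on chromosome 11, at chr11:99056892-99056951 and chr11:99056877-99056936, shared 45 bases. The pair on chromosome 17, at chr17:27715800-27715859 and chr17:27715799-27715858, shared 59 bases.
chr5:121759042-121789992_F: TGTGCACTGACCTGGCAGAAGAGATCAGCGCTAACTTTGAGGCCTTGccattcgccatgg
chr5:121759042-121789992_R: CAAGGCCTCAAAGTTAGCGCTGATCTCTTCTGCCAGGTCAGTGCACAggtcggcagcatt
chr11:99048975-99062425_F: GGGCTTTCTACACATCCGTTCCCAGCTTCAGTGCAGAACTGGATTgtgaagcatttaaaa
chr11:99048975-99062425_R: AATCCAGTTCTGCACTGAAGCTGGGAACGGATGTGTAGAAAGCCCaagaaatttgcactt
chr17:27703181-27716306_F: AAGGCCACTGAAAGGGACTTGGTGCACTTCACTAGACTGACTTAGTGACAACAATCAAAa
chr17:27703181-27716306_R: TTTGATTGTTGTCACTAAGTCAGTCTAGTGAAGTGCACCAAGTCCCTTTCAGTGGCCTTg

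Other probes are shown because a gene-named probe that lies elsewhere in the genome holds the reverse complement of part of them; capitals mark that part. The first shares 41 bases with a probe of Rps2 (a protein of the small ribosomal subunit), the second all 60 bases with a probe of Zfp384 (a zinc finger transcription factor), the third 32 bases with a probe of Zfp937 (a zinc finger gene) and the last 44 bases with a probe of Rpl13a (a protein of the large ribosomal subunit). They lie at chr17:26680065-26680124 on the minus strand, chr4:73874939-73874998 on the minus strand, chr2:150233351-150233410 on the plus strand and chrX:33753607-33753666 on the plus strand.
chr17:26679595-26688270_R: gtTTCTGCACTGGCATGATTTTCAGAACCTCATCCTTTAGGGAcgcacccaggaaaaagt
chr4:73870498-73881323_R: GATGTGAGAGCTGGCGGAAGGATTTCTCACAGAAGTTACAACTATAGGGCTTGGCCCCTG
chr2:150217425-150266600_F: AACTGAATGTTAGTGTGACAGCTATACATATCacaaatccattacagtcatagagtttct
chrX:33750475-33770425_F: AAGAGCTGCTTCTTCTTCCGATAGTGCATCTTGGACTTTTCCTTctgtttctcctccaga

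The last set holds 1 probe from each of 6 positions described in detail below, in lower case because no part of them is marked. Their places were chr4:89050173-89050232 on the plus strand, chr1:85160486-85160545 on the minus strand, chr9:96647019-96647078 on the minus strand, chr17:21178466-21178525 on the minus strand, chr16:64829319-64829378 on the plus strand and chr14:70483858-70483917 on the plus strand.
chr4:89048647-89066563_F: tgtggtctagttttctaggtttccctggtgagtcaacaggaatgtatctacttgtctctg
chr1:85156338-85167730_R: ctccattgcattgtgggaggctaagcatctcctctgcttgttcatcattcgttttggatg
chr9:96635508-96654148_R: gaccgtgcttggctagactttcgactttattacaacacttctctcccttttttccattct
chr17:21177225-21187525_R: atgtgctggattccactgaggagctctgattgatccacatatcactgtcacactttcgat
chr16:64796849-64843249_F: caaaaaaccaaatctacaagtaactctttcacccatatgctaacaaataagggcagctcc
chr14:70483555-70484159_F: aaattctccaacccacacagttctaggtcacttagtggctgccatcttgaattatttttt

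Most of the position-named probes gave a signal somewhere. On at least 3 of the 12 arrays 10938 of them (67.6%) were detected, against 26789 of 39500 other gene probes (67.8%). The share detected on all 12 arrays was lower, with 4774 position-named probes (29.5%) against 36.3% of the others, and 2743 position-named probes were detected on no array. After 24 were left out as outlier spots, 10914 probes of 4023 names at 3075 positions were tested.

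How often a probe was detected went with its base composition. Of the position-named probes with under 35% G and C, 43.2% were detected on at least 3 arrays, rising to 59.5%, 71.5% and 87.4% in the classes from 35%, from 45% and from 55%. The other gene probes gave 42.4%, 61.3%, 75.8% and 86.0% in the same classes. The position-named probes had a median of 45% G and C, the others 41.7%. Detection on all 12 arrays in the 2 middle classes was 21.4% and 31.4% of the position-named probes, against 31.0% and 42.3% of the others. It was 14.5% against 19.9% in the lowest class, but 53.7% against 52.0% in the highest, so the lower share of position-named probes held in 3 of the 4 classes.

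Place in the genome went with detection too. Of the position-named probes that lay within 1 kb of a gene-named probe without overlapping it, 73.0% were detected on at least 3 arrays, and of those from 1 to 10 kb away 72.5%. The share was 65.1% from 10 to 100 kb and 52.8% of the 1071 probes at least 100 kb from any gene-named probe. Of the 371 probes that overlapped a gene-named probe, 64.7% were detected on at least 3 arrays, fewer than of those nearby. Detection on all 12 arrays varied less, from 26.2% at 100 kb or more to 32.8% under 1 kb, with the overlapping probes at 28.6%. Probes in intervals under 1 kb were detected less often (58.4%) than those in intervals of 10 kb or more (70.3%). The suffix made little difference, with 68.3% of _F and 66.8% of _R probes detected. These shares are a description, since probes of 1 position are not independent of each other.

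Of the 1067 positions with probes on both strands, 948 had a detected probe on both, 87 on 1 strand and 32 on neither. Probes of such positions were detected more often (71.0%) than probes of positions with 1 strand (62.5%). Of the 3382 names with at least 3 probes, 1271 had all of them detected, 306 had none, and 1805 had some but not all.

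The share of position-named probes detected on arrays 1, 2 and 3 was 60.4%, 46.9% and 57.4% in IL-10+ control and 56.1%, 60.9% and 58.0% in IL-10+ HDM. It was 58.0%, 51.3% and 61.9% in IL-10- control and 55.6%, 53.8% and 44.4% in IL-10- HDM. The lowest array was thus IL-10- HDM array 3 and the highest IL-10- control array 3. The mean was 54.9% ± 7.06 (SD, n = 3) in IL-10+ control, 58.3% ± 2.40 in IL-10+ HDM, 57.0% ± 5.36 in IL-10- control and 51.2% ± 6.02 in IL-10- HDM. On each of the 12 arrays it lay below the share of the other gene probes, by 0.839 to 6.41 percentage points. The 3 IL-10+ HDM arrays (56.1% to 60.9%) were all above the 3 IL-10- HDM arrays (44.4% to 55.6%), a difference of 7.09 points with an exact two-sided permutation p of 0.1, the smallest that 3 against 3 arrays can give. These groups also lie on different slides. The arrays of the other pairs of groups overlapped: IL-10+ against IL-10- in control mice p = 0.6, HDM against control p = 0.6 in IL-10+ cells and p = 0.4 in IL-10- cells, all by the same exact permutation test. With 5 such comparisons, all 6 IL-10+ against all 6 IL-10- arrays included (exact permutation p = 0.448), none was under 0.05.

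Probes of 1 name agreed less when they lay further apart. Over the 12 arrays, 2 tested probes of the same name under 60 bases apart had a median Pearson correlation of 0.952 (161 pairs), and those from 60 to under 200 bases apart 0.779 (6340 pairs). The median was 0.464 from 200 bases to 1 kb (4288 pairs), 0.141 from 1 to 10 kb (3718 pairs) and 0.164 at 10 kb or more (1786 pairs). Pairs of probes over 1 Mb apart had a median of 0.0718 (10596 pairs). All pairs share the same 12 arrays, and overlapping probes share bases. Whether distant probes of a name read different RNAs was not tested, and the values below are given by probe.

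Probes of opposite strands that covered the same bases mostly moved together over the arrays. There were 1724 pairs of opposite-strand probes that overlapped by at least 30 bases, and 202 probes had an exact reverse complement among the others. In the 1063 pairs with both probes tested, the median correlation over the 12 arrays was 0.859 (quartiles 0.614 and 0.957), against 0.0718 for probes over 1 Mb apart. The difference between IL-10+ and IL-10- cells in the forward probe correlated with that in the reverse probe with r = 0.874 across pairs, and had the same sign in 858 of 1063. The difference between HDM and control mice in IL-10- cells correlated with r = 0.835. In a further 289 pairs only 1 of the probes was tested. Over all pairs and arrays, the detection flags of the partners agreed in 80.2%, and of the pairs with a call in the averaged contrast 2 had both probes called and 4 had 1. These pairs share arrays and the complement of the same letters, so they are a description. Whether transcripts run on both strands at these places was not tested.

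Some position-named probes matched genes far from the position in their name. At least 30 consecutive bases were shared with a gene-named probe by 319 of them, counting both orientations. For 78 the gene-named probe lay elsewhere in the genome, 54 of them holding the reverse complement, 25 the same letters and 1 of these both. Detection on all 12 arrays was reached by 59 of the 78 (75.6%). Over the 12 arrays, such pairs correlated with a median r of 0.962 in the same orientation (30 pairs) and 0.916 in the opposite one (66 pairs).

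Among these, 12 probes shared bases with probes of 8 ribosomal protein genes, 9 of them as the reverse complement, and all 12 were detected on every array. The probe of chr4:73870498-73881323_R moved with Zfp384 at r = 0.995, with differences between IL-10+ and IL-10- cells of 0.87 and 0.91 for the 2 probes. The probe of chrX:33750475-33770425_F moved with Rpl13a at r = 0.985 (differences -0.22 and -0.24), and that of chr17:26679595-26688270_R with Rps2 at r = 0.916 (-0.59 and -0.51). A signal of such a probe cannot be told apart from that of the gene it matches. These correlations are over 12 arrays, and none of the 3 position-named probes was called in that comparison.

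Near neighbours behaved differently from overlapping ones. Across the probes that overlapped a gene-named probe, the difference between IL-10+ and IL-10- cells correlated with that of the gene probe with r = 0.866 on the same strand (139 pairs) and 0.660 on the opposite strand (65 pairs). Within 1 kb it was 0.512 on the same strand (537 pairs) and 0.438 on the opposite strand (618 pairs). From 1 to 10 kb it was 0.0967 and 0.190 (1615 and 1595 pairs), and it was between 0.147 and 0.204 further away. Of the placed probes, 7274 lay within 10 kb of a gene-named probe and 14992 within 100 kb, and 1346 names spanned a gene-named probe. In 300-base windows around RefSeq gene starts (GRCm38.p6, matched by sequence), 170 position-named probes were found, 84 in the direction of the gene and 90 against it, 4 of these in both, and 133 of the 170 were tested.

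The main contrast of the sort set the 6 IL-10+ arrays against the 6 IL-10- arrays. It called 45 position-named probes at 27 positions, 43 higher in IL-10+ cells and 2 lower, which is 0.412% of those tested; over all probes tested 0.345% were called, 0.324% higher and 0.0212% lower. Counted by probe, the share of position-named probes called was thus near that of the array as a whole. With only the brightest probe of each name fitted, 4 of 4023 position-named and 63 of 20940 other gene probes were called. Those higher differed by 1.37 to 6.14 on the log2 scale. The 6 arrays of each kind did not overlap for 28 of the 45. The same values gave the calls, so this is no separate support for them, and the share over all probes is not given here. Only 5 of the 45 were detected on all 12 arrays, and 13 were detected on no IL-10- array. Those 13 passed the detection filter through IL-10+ arrays alone, so their detection is no separate support for the difference. The median difference of the 10914 probes tested was 0.15 (0.06 over all probes), with 6477 above 0. When each array was scaled to its median in place of its 75th percentile, the median turned to -0.18 (from 0.04 to -0.29 for the other gene probes), and 3 position-named probes were called.

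The count rested on few arrays. It was 85, 92 and 18 when IL-10- HDM arrays 1, 2 and 3 were left out in turn. The same for IL-10+ HDM arrays 1, 2 and 3 gave 24, 15 and 20, for IL-10- control arrays 1 and 2 gave 23 and 24, and for IL-10+ control array 3 gave 17. With the slide as a block none of the 45 was called, all 45 kept their sign, and their median difference was 3.23 against 3.00 without the block. Only IL-10- control lies on both slides, so the block rests on its array 3 against its arrays 1 and 2. Of the 45, 10 were called whichever 1 of the 12 arrays was left out. For a probe detected on no array of the dimmer group, the fold is given only as a lower bound, beside the fitted log2 difference. It sets the mean of the brighter group against, on each array of the dimmer group, the higher of the probe's own signal and the lowest signal among probes well above background.

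The smallest adjusted p belonged to chr4:89048647-89066563_F, 97394 bases from the nearest gene-named probe, of Cdkn2b, an inhibitor of cell cycle kinases. Its levels were -0.33, -0.90 and -0.58 on the IL-10+ control arrays and -2.39, -0.43 and -0.07 on the IL-10+ HDM arrays. They were -4.31, -6.15 and -6.51 on the IL-10- control arrays and -6.52, -6.42 and -6.02 on the IL-10- HDM arrays. The probe was detected on all 6 IL-10+ arrays and on no IL-10- array, with a gap between the lowest of the first and the highest of the second. IL-10+ cells were at least 11.8-fold higher (log2 difference 5.20, SE 0.49; limma adjusted p = 0.00614). It was called without each array in turn, but not with the slide as a block (4.35; adjusted p = 0.247). The probe whose level was most like it over the 12 arrays was of Lgr4, a receptor for R-spondins (r = 0.975), and Cdkn2b itself differed by 2.55 (adjusted p = 0.222; r = 0.771).

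All 3 tested probes of chr1:85156338-85167730_R were called, the only name with several tested probes for which this held. These were bright probes, detected on all 12 arrays. The 1 shown above gave 6.40, 6.70 and 6.45 on the IL-10+ control arrays, 6.03, 6.22 and 6.36 on the IL-10+ HDM arrays, 4.40, 4.95 and 4.68 on the IL-10- control arrays and 4.10, 4.29 and 4.10 on the IL-10- HDM arrays. Every IL-10+ array lay above every IL-10- array, and the spread within a group was small beside that gap. The difference was 1.94 (SE 0.21; limma adjusted p = 0.0124), and the other 2 probes differed by 1.82 (SE 0.23; adjusted p = 0.0155) and 1.37 (SE 0.23; adjusted p = 0.039). Leaving out any 1 of the 12 arrays ended the call of the last of these, while the first and second kept theirs in all 12 fits. The first kept a difference of 1.94 with the slide as a block (adjusted p = 0.268) and 1.62 with arrays scaled to their medians (adjusted p = 0.168). These probes were named because the whole name was called, after their values were seen. The probe that differed by 1.82 matched a window around the start of Gm2427, against the direction of that gene.

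On chromosome 9, 8 called probes lay within 27476 bases (chr9:96647019-96674494), under 4 names and on both strands. They differed by 2.32 to 4.79. With 20 kb added to either side, the region held 36 position-named probes, 33 of them tested, and 29 of the 33 were above 0 (-0.81 to 4.79). Over all position-named probes tested, 6477 of 10914 were above 0. The region was drawn around the called probes, which are among the 29, so that count is no separate support. A probe of Zbtb38, a zinc finger protein that binds methylated DNA, lies among the called probes, on the minus strand like the called _R probes. It differed by 3.36 (limma adjusted p = 0.0548). Another Zbtb38 probe on that strand, placed before the called probes, differed by 0.90 (adjusted p = 0.366). The C430002N11Rik probe just beyond them differed by 1.65 (adjusted p = 0.546). Whether the called probes read RNA of these genes was not tested.

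The probe of chr9:96635508-96654148_R shown above, 828 bases from a Zbtb38 probe, gave -0.11, 0.51 and -0.23 on the IL-10+ control arrays and -1.65, 0.10 and -1.57 on the IL-10+ HDM arrays. It gave -5.68, -5.65 and -2.62 on the IL-10- control arrays and -5.60, -6.21 and -5.91 on the IL-10- HDM arrays. All IL-10+ arrays were above all IL-10- arrays, of which only IL-10- control array 3 was detected. The difference was 4.79 (SE 0.57; limma adjusted p = 0.0145), called without each array in turn, and 6.82 with the slide as a block (adjusted p = 0.0569). The Zbtb38 probe correlated with it over the 12 arrays (r = 0.826). On the other strand, the probe of chr9:96635508-96654148_F at chr9:96652211-96652270 was at least 3.04-fold higher in IL-10+ cells (3.15, SE 0.38; adjusted p = 0.0145). It had been detected on 5 of 6 IL-10+ arrays and on no IL-10- array. The probe of chr9:96673952-96674816_F, 260 bases from one of C430002N11Rik, differed by 4.20 (SE 0.67; adjusted p = 0.034).

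The largest difference was that of chr17:21177225-21187525_R, 841 bases from a probe of Zfp160, a zinc finger gene. Its levels were 0.85, 3.46 and 1.57 on the IL-10+ control arrays, -1.45, 0.61 and -1.68 on the IL-10+ HDM arrays, -5.79, -2.18 and -6.57 on the IL-10- control arrays and -6.54, -6.46 and -5.97 on the IL-10- HDM arrays. The groups did not overlap, although IL-10- control array 2 came within 1 unit of the lowest IL-10+ arrays. The difference was 6.14 (SE 0.79; limma adjusted p = 0.0161), and 4.42 with the slide as a block (adjusted p = 0.512). A further 2 probes of the name were called, at 4.79 (adjusted p = 0.0237) and 3.00 (adjusted p = 0.0362). The Zfp160 probe did not share the pattern (0.17; r = 0.126).

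For chr16:64796849-64843249_F, 29835 bases from a probe of Cggbp1 (a protein that binds CGG repeats), 3 probes were called. The 1 shown above gave -0.87, -1.13 and -0.87 on the IL-10+ control arrays, 0.58, -1.47 and -0.21 on the IL-10+ HDM arrays, -2.55, -4.28 and -2.51 on the IL-10- control arrays and -5.63, -6.65 and -6.22 on the IL-10- HDM arrays. The groups ran in steps, with IL-10- HDM lowest and no overlap with IL-10- control. The averaged difference was 3.98 (SE 0.44; limma adjusted p = 0.0124; 4.58 with the slide as a block, adjusted p = 0.197). In HDM mice alone IL-10+ cells were at least 18.5-fold higher (5.80, SE 0.62; adjusted p = 0.0105). The other 2 probes differed on average by 3.37 (adjusted p = 0.0145) and 2.30 (adjusted p = 0.0357).

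Other names also had probes higher in IL-10+ cells. At chr17:84470764-84486339_F 2 probes differed by 3.64 (limma adjusted p = 0.0237) and 3.93 (adjusted p = 0.0326). At chr5:137392195-137426421_R, 19649 bases from Fis1 (a protein of mitochondrial fission), 1 of 10 tested probes was called (3.73; adjusted p = 0.04), and the 10 ran from -2.38 to 3.96 with a median of 0.05 and 5 above 0. Of the 30 names with a called probe, 29 had at least 2 tested probes, and in 23 of these all tested probes had the same sign. In 11 names at least 2 probes were called, and in 4 names 3 were.

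The nearest gene-named probe had been tested for 37 of the 45 called probes and was within 10 kb for 26. It was itself called for none of the 37, but few probes were called at all (0.345% of all probes tested). Its correlation with the position-named probe over the 12 arrays ran from -0.584 to 0.962. The median was 0.471. Over all tested pairs with a gene-named neighbour, called or not, it was 0.937 on the same strand and 0.890 on the opposite strand where they overlapped. It was 0.413 and 0.382 under 1 kb apart, and 0.0648 and 0.0765 from 1 to 10 kb. The called probes were chosen for a difference over these same arrays, so their correlations are no separate support for a tie to the neighbour. Of the 45, 23 were _F and 22 were _R, and their G and C content was 35% to 55% with a median of 45%, the same median as that of all position-named probes.

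Both probes lower in IL-10+ cells lay on chromosome 5. That of chr5:106982442-107045717_R, 6366 bases from Zfp644 (a zinc finger gene), was detected on every array, with levels of -1.28, -1.93 and -1.19 (IL-10+ control), -1.64, -1.16 and -1.37 (IL-10+ HDM), -0.34, -0.37 and -0.37 (IL-10- control) and 0.67, 0.28 and 0.56 (IL-10- HDM). All IL-10+ arrays were below all IL-10- arrays, and the difference was -1.50 (SE 0.23; limma adjusted p = 0.0312). That of chr5:14921737-14978834_F, 4101 bases from Speer4e (a gene of a rodent family expressed in testis), gave 0.03, 0.90 and 0.01 (IL-10+ control), -3.27, -4.06 and -4.17 (IL-10+ HDM), 2.18, 0.60 and 0.19 (IL-10- control) and -0.17, 0.37 and 1.07 (IL-10- HDM). Here the IL-10+ HDM arrays stood below the other 9. The averaged difference was -2.46 (SE 0.41; adjusted p = 0.0401), and in HDM mice -4.25 (SE 0.58; adjusted p = 0.0256).

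Counted by detection, 23 position-named probes were well above background on all 6 IL-10+ arrays and on at most 1 of 6 IL-10- arrays (0.211% of those tested; 69 of all probes tested, 0.183%). The reverse held for 2 (all probes 0.0398%). For HDM against control arrays it was 1 (all probes 0.00797%) and 2 (all probes 0.0212%). Among the 23 were 1 forward and 1 reverse probe of chr19:53517903-53540753, each detected on the 6 IL-10+ arrays and, of the IL-10- arrays, on 1 of IL-10- HDM, while other reverse probes of the position were detected on all 12 arrays. The forward probe gave 1.01, 1.04 and 1.08 (IL-10+ control), -1.08, 0.28 and 0.35 (IL-10+ HDM), -5.91, -6.09 and -4.47 (IL-10- control) and -6.61, 0.97 and -4.85 (IL-10- HDM). With IL-10- HDM array 2 as high as the IL-10+ arrays, the difference of 4.94 was not called (SE 1.08; limma adjusted p = 0.116). The probe of 5830416P10Rik, 774 bases away, was higher in IL-10+ cells by 3.25 (adjusted p = 0.0401).

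In control mice alone, IL-10+ against IL-10- cells called 3 position-named probes, all higher (0.0275% of those tested; all probes 0.0159%), and 467 had an unadjusted p under 0.05. Without 1 array in turn the count was 0 to 5. Removing array 1 or 2 of IL-10+ control, or array 1 or 2 of IL-10+ HDM, left 0. Removing array 1 or 2 of IL-10- control, or array 1 of IL-10- HDM, left 1, and removing array 2 of IL-10- HDM gave 5. With the slide as a block none of the 3 kept its call, with adjusted p from 0.072 to 0.121, and the differences were 4.52 to 5.14 both there and within slide 1, which holds 3 of these IL-10+ arrays and 2 of these IL-10- arrays.

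The first was of chr8:119090566-119097735_F, 2676 bases from Cdyl2, a chromodomain protein. Its levels were -0.22, 0.16 and -0.86 in IL-10+ control, -0.74, -1.36 and -2 in IL-10+ HDM, -4.57, -5.90 and -6.45 in IL-10- control and -1.54, -2.50 and -2.49 in IL-10- HDM. Only the IL-10- control arrays were low, and all 3 were undetected. In control mice IL-10+ cells were at least 13.9-fold higher (5.34, SE 0.57; limma adjusted p = 0.0233), whereas in HDM mice the difference was 0.81 (adjusted p = 0.537). The difference between these 2 contrasts was -4.53 (SE 0.80; adjusted p = 0.282) and was not called.

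The other 2 were the overlapping pair of chr11:99048975-99062425 shown above, with the reverse probe 13499 bases from a probe of Smarce1, a subunit of the SWI/SNF chromatin remodeller. The reverse probe gave -0.58, -0.36 and -2.33 in IL-10+ control, -6.39, -5.52 and -6.31 in IL-10+ HDM, -6.14, -6.32 and -5.73 in IL-10- control and -6.73, -6.68 and -6.23 in IL-10- HDM. It was detected on the 3 IL-10+ control arrays and on no other. The reverse probe passed the detection filter only through these arrays, so that detection is no separate support for its differences. IL-10+ cells of control mice were at least 8.04-fold higher than IL-10- cells of control mice (4.97, SE 0.53; limma adjusted p = 0.0233). The forward probe followed it over the 12 arrays at r = 0.990, and was at least 7.10-fold higher (4.68, SE 0.52; adjusted p = 0.0289).

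The same reverse probe was the only position-named probe called between HDM and control mice in IL-10+ cells (all probes 0.00531%; 278 position-named probes at an unadjusted p under 0.05). It was at least 7.61-fold lower in HDM mice (log2 difference -4.98, SE 0.53; limma adjusted p = 0.0454). The forward probe gave at least 6.72-fold lower and was not called (-4.57; adjusted p = 0.0602). This probe was called in 1 of the 12 fits that left out 1 array, that without IL-10+ control array 3, where 2 probes were called. Leaving out IL-10+ control array 1 gave 1 call, of another probe that was higher in HDM mice, and leaving out any other array gave 0. With normexp background correction the difference was -1.61 (adjusted p = 1).

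In HDM mice alone, IL-10+ against IL-10- cells called 26 position-named probes of 21 names, 25 higher and 1 lower (0.238% of those tested; all probes 0.197%, of which 0.194% higher and 0.00266% lower). The compared arrays did not overlap for any of the 26, but the same values gave the calls, so this is no separate support. For 21 of them no IL-10- HDM array was detected, and 15 of the 26 were detected on all of the other 9 arrays. Lower bounds on the fold ran from 3.08 to 25.7. The median difference over the position-named probes tested was 0.42 (all probes 0.23), with 7352 of 10914 above 0. This median turned to -0.37 when arrays were scaled to their medians, which left 2 called, and quantile normalization gave 12 higher and 3 lower. With the slide as a block none of the 26 was called, all kept their sign, and the median difference was 4.95 against 4.80. That fit cannot decide between the sort and the slide in HDM mice, because only IL-10- control lies on both slides.

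That count also rested on few arrays. Leaving out IL-10- HDM arrays 1, 2 and 3 in turn gave 121, 99 and 5. Leaving out array 2 or 3 of IL-10+ control gave 70 and 14, and leaving out array 1, 2 or 3 of IL-10+ HDM gave 8, 2 and 2.

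Comparing HDM with control mice in IL-10- cells called 11 position-named probes of 10 names, all lower in HDM mice (0.101% of those tested; all probes 0.0717%, of which 0.0691% lower and 0.00266% higher). They differed by -3.13 to -6.06. No array of IL-10- HDM overlapped one of IL-10- control for any of the 11, which again is no separate support. Of the 11, 9 were detected on no IL-10- HDM array. All of the other 9 arrays were detected for 9 of the 11. The median over the position-named probes tested was -0.24 (all probes -0.10), and turned to 0.40 with arrays scaled to their medians, which left 2 called; quantile normalization gave 1 higher and 6 lower. With the slide as a block none was called, and all 11 kept their sign with a median difference of -4.94 against -5.32 (adjusted p 0.185 to 0.386). In that fit the difference is that of the IL-10- HDM arrays from IL-10- control array 3 alone. Leaving out IL-10- HDM arrays 1, 2 and 3 in turn gave 83, 46 and 4, and IL-10- control arrays 1, 2 and 3 in turn gave 5, 0 and 0. Leaving out array 1 or 2 of IL-10+ control gave 5 and 37, and array 2 or 3 of IL-10+ HDM gave 7 each.

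The overlapping pair of chr5:121759042-121789992, 7775 bases from a probe of Gm15800, showed the pattern most fully. The forward probe gave -0.14, -2.02 and 0.00 in IL-10+ control, -0.71, 0.04 and -0.01 in IL-10+ HDM, -0.49, -1.02 and 0.07 in IL-10- control and -6.21, -6.13 and -5.26 in IL-10- HDM. It was detected on 9 arrays and missing on the 3 IL-10- HDM arrays. In HDM mice IL-10+ cells were at least 20.5-fold higher than IL-10- cells (5.64, SE 0.58; limma adjusted p = 0.0105). In IL-10- cells, HDM mice were at least 17.1-fold lower than control mice (-5.39, SE 0.58; adjusted p = 0.022). IL-10- control array 3, on the same slide as the IL-10- HDM arrays, had the highest level of its group. Within that slide the difference was -5.94. Here and below, a difference within the slide sets the IL-10- HDM arrays against that control array alone, and equals the difference with the slide as a block. The reverse probe gave at least 18.6-fold in the sort (5.80) and at least 15.0-fold lower in HDM mice (-5.49), and the probes correlated over the 12 arrays at r = 0.999.

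Others had the same form. The probe of chr3:68867193-68876128_F, 642 bases from 9630025H16Rik, gave -1.65, 0.21 and -1.24 in IL-10+ control, -0.50, -1.39 and -1.34 in IL-10+ HDM, -0.75, 0.79 and -0.26 in IL-10- control and -4.75, -6.49 and -6.13 in IL-10- HDM. IL-10- HDM again stood alone, at least 22.8-fold below IL-10- control (-5.72, SE 0.65; limma adjusted p = 0.0224; -5.53 within the slide). The 10 tested probes of that name ran from -5.72 to -0.38 (median -2.09), with 1 called. At chr17:27703181-27716306, 505 bases from Nudt3 (a hydrolase of inositol pyrophosphates), the reverse probe was at least 9.07-fold lower (-4.84, SE 0.64; adjusted p = 0.0363), and the forward probe differed by -5.46 and was not called (adjusted p = 0.0509).

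At chr2:150217425-150266600_F, 2 probes were called. That 493 bases from Zfp442 (a zinc finger gene) gave -2.45, -2.72 and -1.66 in IL-10+ control, -1.69, -0.48 and -2.84 in IL-10+ HDM, -0.07, -1.33 and -1.81 in IL-10- control and -6.60, -6.53 and -6.14 in IL-10- HDM. IL-10- HDM was the only group without a detected array. It was at least 11.4-fold below IL-10- control (-5.36, SE 0.64; limma adjusted p = 0.0224; -4.62 within the slide). The other, shown above for its 32 bases in common with Zfp937, was at least 10.3-fold lower (-5.32, SE 0.66; adjusted p = 0.0264) and moved with the Zfp937 probe over the 12 arrays at r = 0.989, so its signal cannot be told apart from that of Zfp937.

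The widest difference was at chr14:70483555-70484159_F, 4577 bases from Egr3, an early growth response transcription factor induced by antigen receptor signals. Its levels were 0.60, -1.79 and 1.01 in IL-10+ control, 0.50, 1.28 and -0.70 in IL-10+ HDM, 1.33, 0.21 and 2.07 in IL-10- control and -3.77, -5.29 and -5.51 in IL-10- HDM. The IL-10- HDM arrays lay below the other 9, and 1 of them was detected. HDM was lower than control in IL-10- cells by 6.06 (log2 difference -6.06, SE 0.86; limma adjusted p = 0.0476), and -6.93 within the slide. The Egr3 probe correlated with it over the 12 arrays at r = 0.543.

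A further pair of probes had its signal in IL-10- control alone. Those of chr3:127170996-127201096_F and chr15:8463685-8494960_R were detected on the 3 IL-10- control arrays and on no other. They passed the detection filter only through these arrays, so that detection is no separate support for the differences or the likeness given next. They were at least 2.40-fold (-3.13; limma adjusted p = 0.0476) and at least 3.55-fold (-3.58; adjusted p = 0.0374) lower in IL-10- HDM. Each was the probe most like the other on the whole array (r = 0.938 over 12 arrays). Other probes of the chromosome 3 name did not share the fall: its 4 tested probes ran from -3.13 to 0.45 (median 0.15, 3 above 0). The 2 tested probes of the chromosome 15 name gave -3.58 and -1.48.

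Further probes that the naming rule took in HDM mice were also lowest in IL-10- HDM. That of chr2:158169020-158191295_F gave 1.10, -2.56 and 0.72 in IL-10+ control, 0.56, -0.57 and 0.33 in IL-10+ HDM, 0.63, 0.80 and 0.07 in IL-10- control and -6.25, -4.51 and -5.80 in IL-10- HDM. The 3 IL-10- HDM arrays lay below the other 9. IL-10+ cells of HDM mice were at least 25.7-fold higher than IL-10- cells (5.62, SE 0.88; limma adjusted p = 0.0421), and HDM against control in IL-10- cells just missed the threshold (at least 33.9-fold lower; -6.02; adjusted p = 0.0509). This was the only 1 of 10 tested probes of its name called in the sort in HDM mice. There the 10 ran from -0.31 to 5.62 (median 0.46, 7 above 0). At chr12:83271350-83357214_R the sort gave at least 12-fold in HDM mice (5.38, SE 0.65; adjusted p = 0.015). At chr10:93774693-93893616_F it gave 5.74 (SE 0.87; adjusted p = 0.0388), with 1 IL-10- HDM array detected. In IL-10- cells, HDM mice were at least 11.7-fold lower at chr2:145492995-145523670_R (-4.72, SE 0.59; adjusted p = 0.0264), a probe that also followed the Zfp937 probe over the 12 arrays (r = 0.976). They were lower by 3.97 at chr11:48603904-48611829_R (log2 difference -3.97, SE 0.56; adjusted p = 0.0476). In this comparison the 4 tested probes of chr2:145492995-145523670_R ran from -4.72 to 0.46 (median -1.10).

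Some probes called by the sort in HDM mice had their signal in IL-10+ HDM. That of chr14:65720392-65769859_F, 58910 bases from Extl3 (an enzyme of heparan sulfate synthesis), gave -3.76, -6.06 and -6.19 in IL-10+ control, -1.03, -1.18 and -1.47 in IL-10+ HDM, -5.82, -6.06 and -5.00 in IL-10- control and -6.47, -6.21 and -6.05 in IL-10- HDM. It was detected on the 3 IL-10+ HDM arrays and on no other. This probe passed the detection filter only through these arrays, so that detection is no separate support for its differences. IL-10+ cells were at least 10.2-fold higher in HDM mice (5.01, SE 0.61; limma adjusted p = 0.015), while HDM against control in IL-10+ cells gave at least 6.74-fold higher and was not called (4.11; adjusted p = 0.199). The probe of chr9:75316023-75344401_R at chr9:75332645-75332704 was detected on these 3 arrays and on 1 of IL-10+ control, and was at least 10.2-fold higher in the sort (4.89, SE 0.70; adjusted p = 0.0278). The 6 tested probes of that name ran from -0.34 to 4.89 (median 1.00, 4 above 0), with 2 called.

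Whether the sort's difference itself differed between HDM and control mice was tested as an interaction. No probe was called by limma, position-named or other (0.0%). An unadjusted p under 0.05 was found for 768 of 10914 position-named probes and for 2444 of all 37648. The 5 with the smallest p were the chr5:121759042-121789992 pair (6.01 for the reverse and 5.88 for the forward probe, adjusted p = 0.143 for both), chr2:150217425-150266600_F (5.96; adjusted p = 0.179), chr3:68867193-68876128_F (5.53; adjusted p = 0.232) and chr11:99048975-99062425_R (-4.49; adjusted p = 0.232). Leaving out IL-10- HDM array 1 gave 7 calls, and leaving out array 2 gave 2. So the calls above in HDM mice or in control mice are not shown to be particular to either.

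Genes listed for IL-10, B cell activation and B cell fate were searched for position-named neighbours. Of 81 genes, 27 had such a probe within 100 kb, 17 of them tested, and the neighbour of Egr3 was the only nearest one called in any comparison. Cd9 had a neighbour 1730 bases away that was detected on no array. Igj, the J chain of secreted IgM and IgA, was itself higher in IL-10+ cells by 6.84 (limma adjusted p = 0.00614), while its neighbour at 51967 bases, detected on all 12 arrays, differed by 0.59 (adjusted p = 0.81). The neighbour of Pdcd1lg2, the PD-1 ligand PD-L2, lay 817 bases away on the other strand and followed it over the 12 arrays at r = 0.969, with a difference of 1.46 that was not called (adjusted p = 0.723).

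Named long noncoding RNAs gave a like picture. Of 69 listed, 33 had a probe, and 43 probes of 27 were tested. limma called none in any comparison, with at most 5 at an unadjusted p under 0.05. Within the position of Gas5, a host of small nucleolar RNAs, all 10 reverse probes of chr1:162965309-162970704 and both forward probes were detected on every array, and their differences between IL-10+ and IL-10- cells lay between -0.29 and 0.39. The probe of chr19:5795690-5797464_F, 1496 bases from a probe named NEAT2 (a synonym of Malat1, a nuclear noncoding RNA), was among the 10 with the highest levels. It gave 8.98, 8.44 and 8.71 in IL-10+ control, 8.75, 9.06 and 8.72 in IL-10+ HDM, 8.23, 8 and 8.40 in IL-10- control and 8.15, 8.44 and 7.88 in IL-10- HDM. The difference of 0.59 (SE 0.23) was not called (adjusted p = 0.461). The position chr17:39960567-39992817 spans the ribosomal RNA probes Rn45s and Rn18s, and its 4 forward and 5 reverse probes, detected on all arrays, differed by -0.99 to -0.44, with the means of the 2 strands correlated at r = 0.973.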

How the data were processed

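RNA of 12 samples, 4 groups of 3, was measured on 12 one-colour arrays. Per the file headers, the deposited intensity is the processed signal of Agilent Feature Extraction 10.7.3.1, background-subtracted and not scaled between arrays, with coordinates on mm9 and other values that are flags (well above background, outlier). The deposited table of ratio values equals that signal over the array's median, to within 0.00077% over 59305 spots, by recomputation. No spot was saturated.

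Position-named probes were taken by name. The log2 signal had the array's 75th percentile subtracted, spots of a probe were averaged, and 37648 probes well above background on at least 3 arrays, less 79 with outlier flags, were fitted with limma 3.58.1 (R 4.3.3) as 4 group means, with Benjamini-Hochberg adjustment over all of them (8 residual and 2.15 prior degrees of freedom). The fit was tested on simulated data. Each array has about the same number of probes, so the number of arrays limits the precision. Alternatives were other scalings (median, quantile), normexp, other filters, 1 probe per name, an intensity trend, slide and replicate blocks, only the groups compared, and each array left out.

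Probes are named by rule: all called, or the 12 largest differences in a direction without overlap and detected on every array of the higher group; the 5 smallest p where under 5 were called; the 10 highest levels, the highest positions with both strands, names with the most probes, detection patterns, and neighbours of listed genes within 100 kb. Further called probes of chr1:85156338-85167730_R, chr9, chr16 and chr17 names were added after their values were seen. Members and lists were chosen with earlier results of these data known.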

Additional observations from a re-analysis of the deposited data

How the results depend on the processing

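No called difference changed sign under any alternative. The sign of differences that were not called was not tabulated. Sizes changed much more. In the averaged sort, the 6.14 of the chr17:21177225-21187525_R probe shown ran from 2.70 to 6.81 over the alternatives. The 5.20 of chr4:89048647-89066563_F ran from 1.81 to 5.56, and the 4.79 of the chr9:96635508-96654148_R probe shown from 1.76 to 6.82. Differences from undetected probes are therefore not firm sizes. Under scaling to array medians the median over position-named probes changed sign in all 6 comparisons. Counts of called position-named probes moved more. Scaling to array medians left 0 (sort, control mice), 2 (sort, HDM mice), 3 (sort, averaged), 0 (HDM, IL-10+ cells) and 2 (HDM, IL-10- cells). One probe per name left 0, 3, 4, 0 and 0 of 4023 tested, and 4, 39, 63, 1 and 12 of 20940 other gene probes. The slide as a block left 0 in the last 4, and in control mice 2, which were other probes than the 3 called without it. The replicate number as a block left 1, 7, 25, 0 and 0. Deviations of same-numbered arrays from their group means correlated at -0.116 to 0.123. Such weak correlations cannot decide whether the numbers pair the samples, and the labels do not say. Fitting only the groups compared gave 0 (sort, control mice), 46 (sort, HDM mice), 0 and 0 (HDM, each cell kind). Within slide 1, 0 were called in control mice. Slide 2, chosen after seeing the data, held no IL-10- control array but array 3, so for IL-10- cells only differences are given there. Quantile normalization gave 15 in HDM mice and 7 for HDM in IL-10- cells; normexp 8 in HDM mice, 0 for HDM in either cell kind. An intensity trend left 1 (sort, control mice), 0 and 7 (HDM, IL-10+ and IL-10- cells). Detection on 6 arrays left 1 in control mice and 0 for HDM in IL-10+ cells, where no filter also left 0. Leaving out 1 array gave 0 to 5, 2 to 121, 15 to 92, 0 to 2, 0 to 83 and, for the interaction, 0 to 7. The cause of these changes was not tested. Of the probes called in the averaged sort, 13 were detected on no array of the lower group, where a fold is only bounded.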
